A study of Arabidopsis thaliana with 12 samples.

Results

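The 10 genes described here encode cytosolic translation elongation factors of Arabidopsis thaliana. They were chosen by locus identifier from 25835 genes with deposited expression values. Earlier results of these data were known when the choice was made. Of the 10 genes, 4 encode eEF1A (AT1G07920, AT1G07930, AT1G07940 and AT5G60390), 5 encode subunits of eEF1B (AT5G12110, AT5G19510, AT1G30230, AT1G09640 and AT1G57720) and 1 encodes eEF2 (AT1G56070, LOS1). All 10 were among the 19170 genes with a mean of at least 1 FPKM (reads scaled to gene length and to the library's reads) over the 12 libraries, and all were tested.

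The study compared an eif4e mutant with wild type seedlings of Arabidopsis, in mRNA from immunopurified ribosomes and in total mRNA. The 4 groups, each of 3 libraries, were ribosome-bound mRNA of eif4e, ribosome-bound mRNA of wild type, total mRNA of eif4e and total mRNA of wild type. All plants were of the Columbia ecotype, were 9 days old, grew at 22 °C with 16 h of light and 8 h of dark, and were frozen whole at zeitgeber time 16 h, before the lights went off. The labels name neither the eif4e allele nor the protein by which ribosomes were immunopurified, nor the cells from which that protein would collect them. Whether replicates were separate cultures is not stated, so a p-value here measures the spread between libraries, which may be technical.

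During elongation, eEF1A with bound GTP delivers each aminoacyl-tRNA to the ribosome and leaves it with GDP. eEF1B, a complex of exchange subunits on a gamma scaffold, reloads eEF1A with GTP, and eEF2 drives the step by which the ribosome moves along the mRNA by 1 codon. These proteins are among the most abundant of a growing plant cell, and in mammals the translation of their mRNAs is known to follow TOR signalling. eIF4E, the factor that is mutated here, binds the mRNA cap at the start of translation.

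Counts per library numbered 20083555 to 22034288 for ribosome-bound eif4e, 18585324 to 24673644 for ribosome-bound wild type, 17058704 to 19973299 for total eif4e and 21707431 to 22539336 for total wild type. A member had between 637 and 27215 counts in a library. EIF4E (AT4G18040), the gene after which the mutant is named, had 12.3, 11.6 and 13.9 FPKM in ribosome-bound eif4e, against 71.8, 92.9 and 87.2 FPKM in ribosome-bound wild type. In total mRNA it had 8.28, 24.2 and 8.29 FPKM in eif4e, against 45.8, 44.0 and 44.2 FPKM in wild type. It was lower in eif4e on both levels, by a log2 change of -2.69 ± 0.33 (SE) in ribosome-bound mRNA (adjusted p = 9.3e-04) and -1.60 ± 0.33 in total mRNA (adjusted p = 0.0083, edgeR's quasi-likelihood test), and replicate 2 of total eif4e stood above the other mutant libraries.

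Marker genes of other tissues and cell types also moved with genotype. Markers were counted as risen or fallen at an adjusted p below 0.05 in edgeR's quasi-likelihood test. By that test 27.3% of all tested genes passed in either direction in ribosome-bound mRNA and 17.0% in total mRNA. Of 4 green tissue markers, 3 rose in ribosome-bound mRNA of eif4e and 4 in total mRNA. Their summed level ran from 21955 to 28244 FPKM in ribosome-bound eif4e, against 16546 to 21254 FPKM in ribosome-bound wild type, and in total mRNA from 21882 to 25966 FPKM in eif4e, against 13976 to 16553 FPKM in wild type. Of 4 root markers, 2 fell in each kind of mRNA, with summed levels of 8.54 to 8.90 FPKM in ribosome-bound eif4e, against 14.1 to 14.9 FPKM in ribosome-bound wild type, and of 27.8 to 34.2 FPKM in total eif4e, against 47.0 to 55.0 FPKM in total wild type. Of 3 markers of dividing cells, 3 fell in ribosome-bound mRNA and 1 in total mRNA, with summed levels of 21.0 to 31.3 FPKM in ribosome-bound eif4e, against 40.9 to 41.8 FPKM in ribosome-bound wild type, and of 18.7 to 26.1 FPKM in total eif4e, against 34.0 to 38.2 FPKM in total wild type. No marker was at 0 in a library. The part of these markers in the results on the elongation factor genes was not tested, and in whole seedlings fewer cells of a type and less RNA per cell cannot be told apart.

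The 10 genes spanned a wide range of levels per gene length. AT5G60390, an eEF1A gene, was the most abundant in each of the 4 groups and ranked 125 of 25835 genes by mean FPKM over the 12 libraries. AT1G30230 (eEF-1Bb1), which encodes the beta exchange subunit of eEF1B, ranked 269, eEF2 ranked 329 and the alpha subunit gene AT5G19510 ranked 484. The gamma subunit genes AT1G57720 and AT1G09640 ranked 1019 and 1332. The lowest ranks were those of the alpha subunit gene AT5G12110, at 2841, and the eEF1A gene AT1G07940, at 3092.

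The order of levels within the set differed between groups at its top and bottom. In total eif4e AT1G30230 stood second, at 509.6 ± 34.7 FPKM (SD, n = 3), above eEF2 at 422 ± 20.5 FPKM. In total wild type eEF2 stood second, at 381 ± 7.22 FPKM, above AT1G30230 at 305 ± 15.0 FPKM. The ranges of these 2 genes did not overlap in either group, and their order was opposite. AT1G30230 was also second in ribosome-bound eif4e, at 305 ± 27.7 FPKM, where eEF2 and AT5G19510 (each 214 FPKM) overlapped in the next place, and in ribosome-bound wild type, at 263 ± 8.88 FPKM. At the bottom, AT5G12110 was lowest in total mRNA, at 42.4 ± 7.19 FPKM in eif4e and 39.3 ± 3.86 FPKM in wild type. AT1G07940 was lowest on ribosomes, at 39.7 ± 1.84 FPKM in eif4e and 39.3 ± 3.60 FPKM in wild type. Neighbours in the order that overlapped were AT1G57720, AT1G07930 and AT1G09640 in ribosome-bound eif4e, AT1G07920 and AT5G12110 in both ribosome-bound groups, and in total eif4e AT1G07930 with AT1G09640 and AT1G07940 with AT5G12110. The other neighbours had separate ranges.

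**Figure D1:**
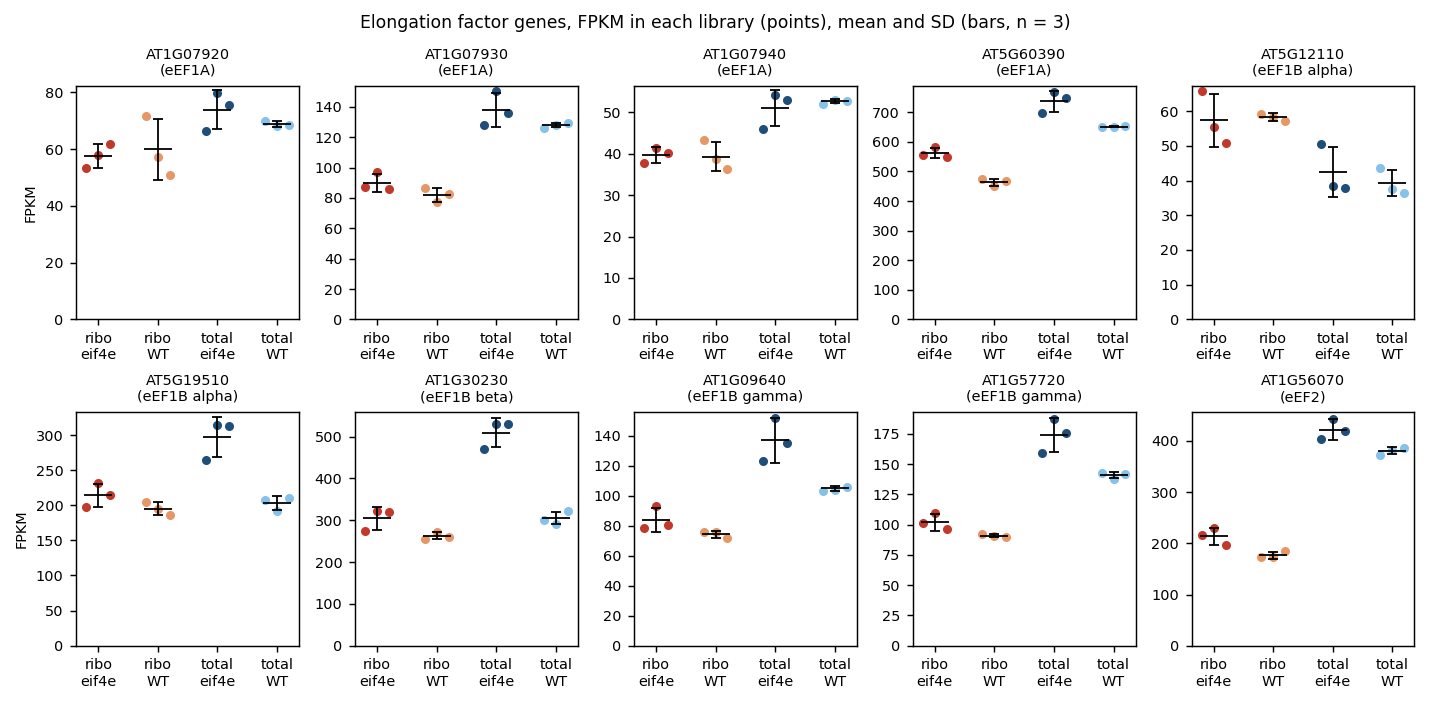
FPKM of each of the 10 elongation factor genes (vertical axes, each from 0) in the 12 libraries, with points for libraries and bars for the mean and SD of 3 libraries in ribosome-bound (ribo) and total mRNA of eif4e and wild type (WT). AT5G60390 lies highest, between 449.5 and 767 FPKM, AT5G12110 is the only gene whose ribosome-bound libraries all lie above the total libraries of the same genotype, and the total eif4e libraries of AT1G30230 lie between 469.6 and 531 FPKM, above all other libraries of that gene.

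As a set, the 10 genes held 0.289 to 0.314% of all counts in ribosome-bound eif4e, against 0.251 to 0.260% in ribosome-bound wild type. In total mRNA they held 0.435 to 0.487% of counts in eif4e, against 0.379 to 0.388% in wild type. The eif4e libraries lay above the wild type libraries on both levels without overlap.

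The eEF1A genes AT1G07920, AT1G07930 and AT1G07940 are consecutive protein-coding genes on chromosome 1 in the RefSeq annotation, and AT5G60390 lies on chromosome 5. The 4 copies are near-identical in their coding sequence, and the sources used here do not give how the counting treated reads that they share, so the values of single eEF1A genes are uncertain and their sum is given beside them. AT5G60390 held most of the summed eEF1A level in each library. Its share was 74.5 to 75.8% in ribosome-bound eif4e, against 70.1 to 73.4% in ribosome-bound wild type, and 73.0 to 74.4% in total eif4e, against 72.3 to 72.4% in total wild type. The ranges of the genotypes did not overlap on either level. AT1G07930 held 11.7 to 12.5% in ribosome-bound eif4e and 12.4 to 12.9% in ribosome-bound wild type, and 13.4 to 14.3% in total eif4e and 14.0 to 14.3% in total wild type. AT1G07940 held the smallest share, 5.12 to 5.47% in ribosome-bound eif4e and 5.68 to 6.42% in ribosome-bound wild type. Differences between shares were not tested.

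**Figure D2:**
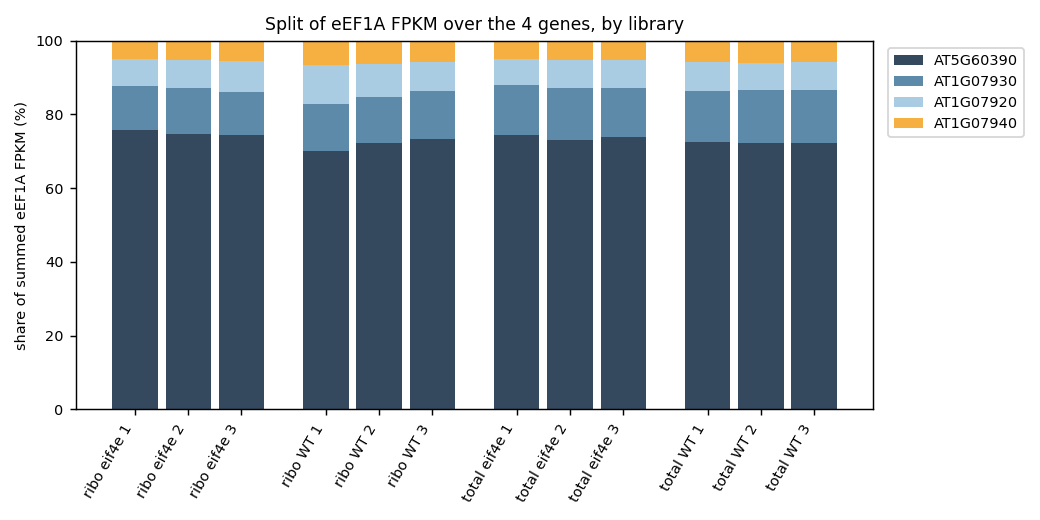
Share of the summed FPKM of the 4 eEF1A genes held by each gene (vertical axis, %) in each of the 12 libraries (horizontal axis, by group and replicate). AT5G60390, the lowest band of each bar, holds between 70.1 and 75.8%.

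The eEF1B pairs were split less evenly for alpha than for gamma. AT5G19510 held 83.9 to 89.2% of the summed alpha FPKM in total eif4e and 82.5 to 85.2% in total wild type, and 75.0 to 80.8% in ribosome-bound eif4e and 76.4 to 77.5% in ribosome-bound wild type. AT1G57720 held 55.1 to 56.7% of the summed gamma FPKM in total eif4e and 57.1 to 58.1% in total wild type, and 54.1 to 56.2% in ribosome-bound eif4e and 54.6 to 55.6% in ribosome-bound wild type, where the genotypes overlapped.

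In total mRNA, elongation factor genes were higher in eif4e than in wild type. Of the 10 genes 7 rose and 0 fell (edgeR's quasi-likelihood test with Benjamini-Hochberg adjustment over all 19170 genes), where 17.0% of all tested genes passed in either direction, 10.4% as higher and 6.54% as lower. The median log2 change of the 10 was 0.29, against -0.00 over all tested genes, and all 10 estimates were positive. These changes come from counts scaled by TMM, which assumes that most genes do not differ, so they need not equal ratios of FPKM. With library size alone in place of TMM, the median over all tested genes was -0.11, that of the 10 was 0.18, and 9 of 10 estimates were positive. Of the 10 genes 5 then rose and 0 fell, where 21.2% of all tested genes passed in either direction.

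The beta subunit gene of eEF1B had the largest change of the 10. AT1G30230 had 469.6, 531 and 529 FPKM in total eif4e, against 301, 292 and 321 FPKM in total wild type. Every mutant library lay above every wild type library. The scaled counts rose 1.83-fold (log2 change 0.87 ± 0.08, SE; adjusted p = 9.3e-05). The alpha subunit gene AT5G19510 had 264, 315 and 313 FPKM in total eif4e, against 207, 192 and 209.9 FPKM in total wild type, again without overlap. It rose 1.60-fold, a log2 change of 0.68 ± 0.08 (adjusted p = 4.2e-04).

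The other alpha subunit gene, AT5G12110, had 50.6, 38.4 and 38.0 FPKM in total eif4e, against 43.7, 37.7 and 36.5 FPKM in total wild type. The groups overlapped, and replicate 1 was the highest library of both genotypes. The log2 change of 0.24 ± 0.13 did not pass (adjusted p = 0.211), but with the replicate number as a block it was 0.23 ± 0.08 and passed (adjusted p = 0.0353). Alpha and beta subunits both exchange GDP for GTP on eEF1A.

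Both genes of the gamma subunit, which holds the eEF1B complex together, rose. AT1G09640 had 123, 152 and 135 FPKM in total eif4e, against 103, 104 and 106 FPKM in total wild type, and rose by a log2 change of 0.51 ± 0.08 (adjusted p = 0.0021). AT1G57720 had 159, 187 and 176 FPKM in total eif4e, against 143, 138 and 142 FPKM in total wild type, and rose by 0.43 ± 0.06 (adjusted p = 0.0016). For neither gene did the genotypes overlap.

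The summed eEF1A genes had 936, 1051 and 1013 FPKM in total eif4e, against 900.4, 901 and 904 FPKM in total wild type. The wild type libraries lay within a few FPKM of each other and below every mutant library. The sum rose 1.21-fold, a log2 change of 0.28 ± 0.06 (adjusted p = 0.0141). It did not pass without replicate 1 or 3 of total wild type (adjusted p = 0.0562 and 0.0514) or with library size alone (0.17, adjusted p = 0.0862). Nor did it pass without replicate 1, 2 or 3 in all groups (adjusted p = 0.135, 0.0593 and 0.151) or with limma on FPKM (0.15, adjusted p = 0.122).

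Among single eEF1A copies, AT5G60390 had 696, 767 and 749 FPKM in total eif4e, against 652, 651 and 653 FPKM in total wild type, and rose by a log2 change of 0.30 ± 0.06 (adjusted p = 0.0059). AT1G07930 had 128, 150.2 and 136 FPKM in total eif4e, against 126, 128 and 129 FPKM in total wild type, overlapping in the lowest mutant library. It rose by 0.24 ± 0.07 (adjusted p = 0.0371), a call lost without any 1 of the total libraries other than eif4e replicate 1 (adjusted p up to 0.115) and with library size alone (0.13, adjusted p = 0.24). AT1G07920 had 66.3, 79.8 and 75.7 FPKM in total eif4e, against 70.0, 68.0 and 68.6 FPKM in total wild type, and AT1G07940 had 45.9, 54.1 and 52.9 FPKM in total eif4e, against 52.1, 53.0 and 52.8 FPKM in total wild type. Both overlapped and neither passed, at 0.23 ± 0.12 (adjusted p = 0.191) for AT1G07920 and 0.08 ± 0.08 (adjusted p = 0.497) for AT1G07940, whose estimate was -0.03 with library size alone. That the copies differ in their change was not tested.

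eEF2 had 403, 443 and 419.6 FPKM in total eif4e, against 373, 383 and 387 FPKM in total wild type, without overlap. It rose by a log2 change of 0.27 ± 0.06 (adjusted p = 0.0151). The call was lost without replicate 1 of total wild type (0.26, adjusted p = 0.0652) and with library size alone (0.16, adjusted p = 0.118). It was also lost without replicate 1, 2 or 3 in all groups (adjusted p = 0.175, 0.0578 and 0.105) and with limma on FPKM (0.15, adjusted p = 0.14).

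In ribosome-bound mRNA an eEF1A gene, the beta subunit gene, a gamma subunit gene and eEF2 were higher in eif4e. Of the 10 genes 4 rose and 0 fell (edgeR's quasi-likelihood test), where 27.3% of all tested genes passed in either direction and 15.4% passed as higher. An unadjusted p under 0.05 was found for 7 of the 10 and for 7876 of all 19170 tested genes. The median log2 change of the 10 was 0.20, against 0.01 over all tested genes. Estimates ran from -0.01 to 0.32. Over all tested genes this change ran with gene length. Its median was -0.36 in the shortest and 0.27 in the longest of 20 length bins. With a correction for gene length, the median of the 10 was 0.14 and 8 of 10 estimates were positive. Of the 10 genes 3 then rose and 0 fell, where 18.1% of all tested genes passed in either direction.

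AT5G60390 had 557, 582 and 548 FPKM in ribosome-bound eif4e, against 473, 449.5 and 468 FPKM in ribosome-bound wild type. It rose 1.25-fold, a log2 change of 0.32 ± 0.06 (SE, adjusted p = 0.0037), with no overlap between genotypes. The summed eEF1A genes had 736, 778 and 736 FPKM in ribosome-bound eif4e, against 674, 622 and 637 FPKM in ribosome-bound wild type, also without overlap. Their log2 change was 0.26 ± 0.06 (adjusted p = 0.0126), and 0.18 ± 0.06 with a correction for gene length (adjusted p = 0.0605).

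The eEF1A copies on chromosome 1 overlapped between genotypes. AT1G07930 had 87.3, 96.9 and 85.9 FPKM in ribosome-bound eif4e, against 86.5, 77.1 and 82.4 FPKM in ribosome-bound wild type (0.18 ± 0.07, adjusted p = 0.0754), and passed with the replicate block (0.18 ± 0.06, adjusted p = 0.0447). AT1G07920 had 53.4, 58.1 and 61.7 FPKM in ribosome-bound eif4e, against 71.6, 57.1 and 50.9 FPKM in ribosome-bound wild type, the widest spread of a wild type group among the members relative to its mean. Its estimate was -0.01 ± 0.12 (adjusted p = 0.977), and 0.14 without replicate 1 of ribosome-bound wild type. AT1G07940 had 37.7, 41.3 and 40.2 FPKM in ribosome-bound eif4e, against 43.2, 38.6 and 36.2 FPKM in ribosome-bound wild type (0.06 ± 0.08, adjusted p = 0.602).

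eEF2 had 216, 230.3 and 197 FPKM in ribosome-bound eif4e, against 174, 173 and 185 FPKM in ribosome-bound wild type. The genotypes did not overlap, and the gene rose 1.25-fold, a log2 change of 0.32 ± 0.06 (adjusted p = 0.0060). eEF2 is long, at 1.95 times the median length of tested genes, and with the length correction the change was 0.12 (adjusted p = 0.149). Without that correction, the bin of tested genes nearest to it in length had a median change of 0.20.

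AT1G30230 had 274, 323 and 319.5 FPKM in ribosome-bound eif4e, against 256, 273 and 260.1 FPKM in ribosome-bound wild type. The lowest mutant library lay just above the highest wild type library. It rose by a log2 change of 0.26 ± 0.08 (adjusted p = 0.0307), and lost the call without ribosome-bound replicate 2 or 3 of eif4e or replicate 1 or 3 of wild type (adjusted p up to 0.0928) and with library size alone (0.23, adjusted p = 0.0572). The alpha subunit gene AT5G19510 had 198, 232 and 214 FPKM in ribosome-bound eif4e, against 204, 195 and 186 FPKM in ribosome-bound wild type. These overlapped, and the log2 change of 0.18 ± 0.08 did not pass (adjusted p = 0.109) other than with the length correction (0.27, adjusted p = 0.0238). AT5G12110 had 65.8, 55.5 and 50.9 FPKM in ribosome-bound eif4e, against 59.3, 58.2 and 57.2 FPKM in ribosome-bound wild type, with an estimate of 0.02 ± 0.12 (adjusted p = 0.91).

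The gamma subunit gene AT1G57720 had 101, 109.8 and 96.1 FPKM in ribosome-bound eif4e, against 91.9, 91.0 and 89.7 FPKM in ribosome-bound wild type. It rose by a log2 change of 0.21 ± 0.06 (adjusted p = 0.0307), and lost the call without any 1 of the ribosome-bound libraries other than eif4e replicate 3 (adjusted p up to 0.0867), with library size alone (0.18, adjusted p = 0.0873) and with the length correction (0.14, adjusted p = 0.119). AT1G09640 had 78.3, 93.1 and 80.3 FPKM in ribosome-bound eif4e, against 75.7, 75.6 and 71.7 FPKM in ribosome-bound wild type, without overlap. Its log2 change of 0.22 ± 0.08 did not pass (adjusted p = 0.0642), but passed with the replicate block (0.22 ± 0.06, adjusted p = 0.0157) and in DESeq2 (0.21, adjusted p = 0.0475).

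**Figure D3:**
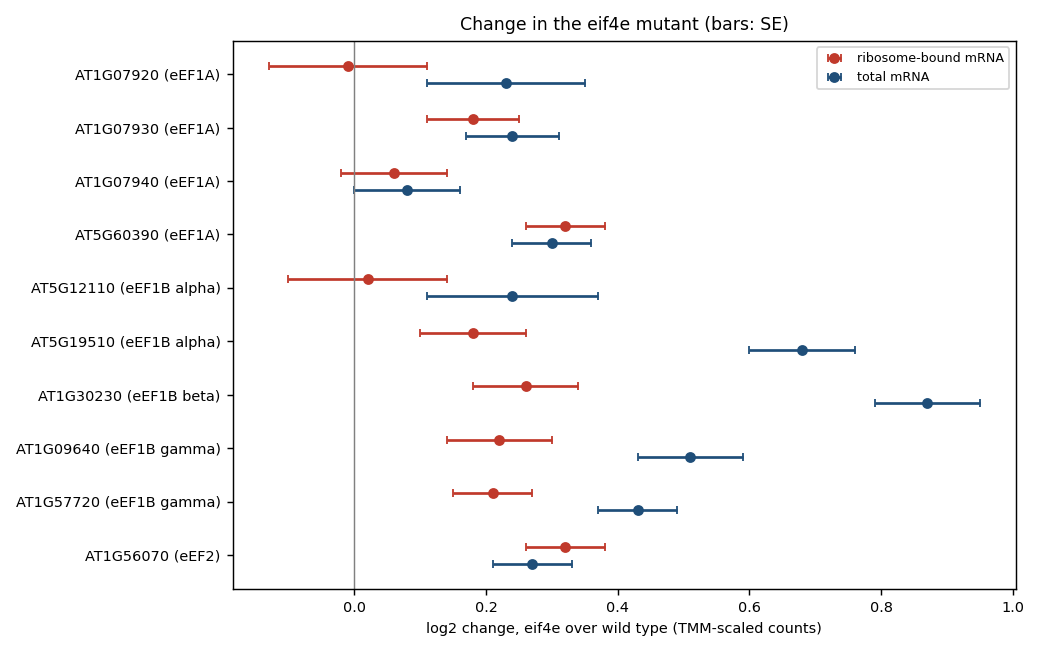
Log2 change of TMM-scaled counts in eif4e over wild type (horizontal axis) for each of the 10 genes, in ribosome-bound and total mRNA, with bars for the SE from edgeR. The points of AT5G19510 and AT1G30230 lie farthest apart, at 0.18 and 0.26 in ribosome-bound mRNA and 0.68 and 0.87 in total mRNA, while those of AT5G60390, at 0.32 in ribosome-bound and 0.30 in total mRNA, lie close together.

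Whether the change with genotype differed between ribosome-bound and total mRNA was tested as an interaction. For 2 of the 10 genes the change was smaller in ribosome-bound than in total mRNA, and for 0 it was larger (edgeR's quasi-likelihood test), where 4.03% of all tested genes passed in either direction, 1.67% as higher and 2.35% as lower. Both were exchange subunit genes of eEF1B. For AT1G30230 the difference of the log2 changes was -0.61 ± 0.11 (SE, adjusted p = 0.0176), and for AT5G19510 it was -0.50 ± 0.11 (adjusted p = 0.0354). The median difference of the 10 was -0.22, against -0.01 over all tested genes.

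These calls were close to the threshold. With the length correction AT1G30230 stood at -0.47 (adjusted p = 0.0527) and AT5G19510 at -0.33 (adjusted p = 0.207). Then 0 members passed in edgeR, where 0.694% of all tested genes passed. An unadjusted p under 0.05 was found for 5 members and for 1950 of all 19170 tested genes. Without that correction DESeq2 called 2 members and limma on FPKM 1, where they called 7.01% and 4.02% of all tested genes. AT1G30230 also lost its call without total wild type replicate 1 or 2 or total eif4e replicate 3 (adjusted p up to 0.0634). AT5G19510 lost it without any 1 library other than total eif4e replicate 1 or ribosome-bound replicate 3 of either genotype (adjusted p up to 0.1), and with library size alone (-0.42, adjusted p = 0.0656).

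The gamma subunit genes had differences of -0.30 ± 0.11 (AT1G09640, adjusted p = 0.165) and -0.22 ± 0.09 (AT1G57720, adjusted p = 0.197), and AT5G12110 one of -0.22 ± 0.18 (adjusted p = 0.57). For the summed eEF1A genes the difference was -0.01 ± 0.09 (adjusted p = 0.962) and for eEF2 it was 0.04 ± 0.09 (adjusted p = 0.874). None of these passed, which does not show that the 2 kinds of mRNA changed alike.

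Ribosome-bound mRNA was then compared with total mRNA of the same genotype. The ratio is relative to that of other genes, since the scaling sets a typical gene to about 0, so a negative value means a smaller share of ribosome-bound than of total mRNA and not an absence from ribosomes. In eif4e 1 of the 10 genes was higher in ribosome-bound mRNA and 9 were lower (edgeR's quasi-likelihood test), where 58.4% of all tested genes passed in either direction, 29.1% as higher and 29.3% as lower. In wild type 1 was higher and 6 were lower, where 67.5% of all tested genes passed, 33.8% as higher and 33.6% as lower. The median log2 ratio of the 10 was -0.51 in eif4e (-0.01 over all tested genes) and -0.34 in wild type (0.00 over all tested genes). With library size alone the medians of the 10 were -0.55 in eif4e and -0.46 in wild type, and in wild type the median over all tested genes was then -0.12.

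eEF2 had the lowest ratio of the set before any correction for gene length. With the length correction AT1G30230 was lowest, at -1.08 in eif4e and -0.60 in wild type, and eEF2 was at -0.47 in eif4e and -0.27 in wild type. eEF2 averaged 214 ± 16.5 FPKM in ribosome-bound mRNA and 422 ± 20.5 FPKM in total mRNA of eif4e (SD, n = 3 each), and 177 ± 6.82 FPKM in ribosome-bound and 381 ± 7.22 FPKM in total mRNA of wild type. The log2 ratio was -0.94 ± 0.06 in eif4e (adjusted p = 8.8e-07) and -0.99 ± 0.06 in wild type (adjusted p = 2.1e-07), with no overlap in either genotype.

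AT5G12110 was the member that passed as higher in ribosome-bound mRNA, in both genotypes. It averaged 57.4 ± 7.64 FPKM in ribosome-bound mRNA and 42.4 ± 7.19 FPKM in total mRNA of eif4e, and 58.3 ± 1.05 FPKM in ribosome-bound and 39.3 ± 3.86 FPKM in total mRNA of wild type. The log2 ratio was 0.47 ± 0.12 in eif4e (adjusted p = 0.0069) and 0.69 ± 0.12 in wild type (adjusted p = 4.5e-04). Its paralog AT5G19510 had log2 ratios of -0.44 ± 0.08 in eif4e (adjusted p = 6.0e-04) and 0.06 ± 0.08 in wild type (adjusted p = 0.507).

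AT1G30230 averaged 305 ± 27.7 FPKM in ribosome-bound and 509.6 ± 34.7 FPKM in total mRNA of eif4e, and 263 ± 8.88 FPKM in ribosome-bound and 305 ± 15.0 FPKM in total mRNA of wild type. The log2 ratio was -0.70 ± 0.08 in eif4e (adjusted p = 2.1e-05) and -0.09 ± 0.08 in wild type (adjusted p = 0.31), and the difference between these ratios is the -0.61 tested above. With library size alone the wild type ratio passed too (-0.22, adjusted p = 0.0311).

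The gamma subunit genes were lower in ribosome-bound mRNA of both genotypes. AT1G57720 had log2 ratios of -0.74 ± 0.06 in eif4e (adjusted p = 3.5e-06) and -0.52 ± 0.06 in wild type (adjusted p = 2.2e-05). AT1G09640 had -0.67 ± 0.08 in eif4e (adjusted p = 3.2e-05) and -0.37 ± 0.08 in wild type (adjusted p = 0.0014).

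The summed eEF1A genes had log2 ratios of -0.38 ± 0.06 in eif4e (adjusted p = 3.3e-04) and -0.37 ± 0.06 in wild type (adjusted p = 3.0e-04). Of the copies, AT1G07930 was lowest, at -0.58 ± 0.07 in eif4e and -0.52 ± 0.07 in wild type, followed by AT5G60390, at -0.36 ± 0.06 in eif4e and -0.38 ± 0.06 in wild type, and AT1G07940, at -0.32 ± 0.08 in eif4e and -0.30 ± 0.08 in wild type. AT1G07920 had -0.32 ± 0.12 in eif4e (adjusted p = 0.0339) and -0.08 ± 0.12 in wild type (adjusted p = 0.543). The eif4e call of AT1G07920 was lost without replicate 1 or 2 of ribosome-bound eif4e or replicate 2 or 3 of total eif4e (adjusted p up to 0.111), without replicate 2 in all groups (adjusted p = 0.208), without the filter on low genes (adjusted p = 0.0514) and with the length correction (-0.23, adjusted p = 0.152).

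**Figure D4:**
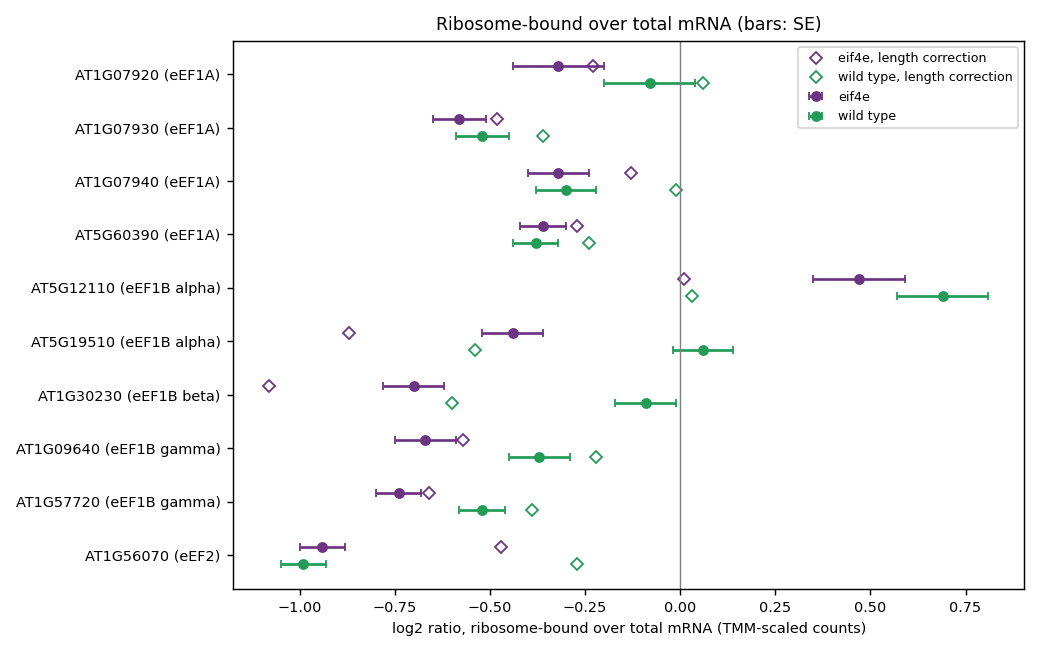
Log2 ratio of TMM-scaled counts in ribosome-bound over total mRNA (horizontal axis) for each of the 10 genes in eif4e and wild type, with filled points and SE bars from the fit without a length correction and open diamonds with it. Filled points run from -0.99 for eEF2 in wild type to 0.69 for AT5G12110 in wild type, and the length correction brings AT5G12110 to 0.01 in eif4e and 0.03 in wild type.

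Across all genes the ratio of ribosome-bound to total mRNA ran with gene length. In 20 bins of tested genes by length, the median log2 ratio was 0.74 in the second shortest and -0.77 in the longest bin in eif4e, and 1.08 in the second shortest and -1.13 in the longest bin in wild type. The members fell on both sides of the middle. Relative to the median length of tested genes, AT5G12110 had 0.618 times, AT5G19510 0.647 times and AT1G30230 0.695 times that length, the gamma subunit genes 1.16 and 1.18 times, the eEF1A genes 1.16 to 1.34 times and eEF2 1.95 times.

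Set against genes of like length, the alpha subunit gene AT5G19510 and the beta subunit gene AT1G30230 lay low, as did some longer members. The alpha subunit gene AT5G12110 lay near the middle. The bin of AT5G12110 and AT5G19510 had a median log2 ratio of 0.44 in eif4e, with quartiles of 0.16 and 0.70, and of 0.61 in wild type, with quartiles of 0.35 and 0.85. AT5G12110, at 0.47 in eif4e and 0.69 in wild type, lay near those medians. AT5G19510, at -0.44 in eif4e and 0.06 in wild type, lay below the lower quartile in both genotypes. The bin of AT1G30230 had medians of 0.32 in eif4e and 0.44 in wild type, with lower quartiles of 0.04 in eif4e and 0.17 in wild type. The gene lay below both, at -0.70 in eif4e and -0.09 in wild type. The bin of AT1G57720, AT1G07930, AT1G09640, AT5G60390 and AT1G07920 had lower quartiles of -0.35 in eif4e and -0.41 in wild type. In that order of genotypes, AT1G57720 (-0.74 and -0.52) and AT1G07930 (-0.58 and -0.52) lay below both. AT1G09640 lay below in eif4e (-0.67) and above in wild type (-0.37). AT5G60390 lay just below in eif4e (-0.36) and above in wild type (-0.38), and AT1G07920 lay above both (-0.32 and -0.08). The bin of AT1G07940 had lower quartiles of -0.41 in eif4e and -0.50 in wild type, and the gene lay above both (-0.32 and -0.30). eEF2 lay below the lower quartile of its bin in eif4e (-0.94 against -0.71) and at it in wild type (-0.99).

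Once the trend with length was removed from each library, AT5G12110 no longer passed, at 0.01 in eif4e (adjusted p = 0.979) and 0.03 in wild type (adjusted p = 0.873). AT5G19510 moved to -0.87 in eif4e and to -0.54 in wild type (adjusted p = 1.4e-04), so that its wild type direction reversed. AT1G30230 moved to -1.08 in eif4e and to -0.60 in wild type (adjusted p = 4.6e-05). eEF2, by contrast, moved towards 0. AT1G07940 no longer passed, at -0.13 in eif4e (adjusted p = 0.232) and -0.01 in wild type (adjusted p = 0.931). AT1G07920 no longer passed in eif4e, at -0.23 (adjusted p = 0.152), and stood at 0.06 in wild type (adjusted p = 0.715). The count of members called was then 0 higher and 7 lower in each genotype. Of all tested genes 39.3% then passed in eif4e and 42.8% in wild type, of which 48.3% and 49.3% were higher. Whether length itself or a property that goes with it underlies the trend was not tested.

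**Figure D5:**
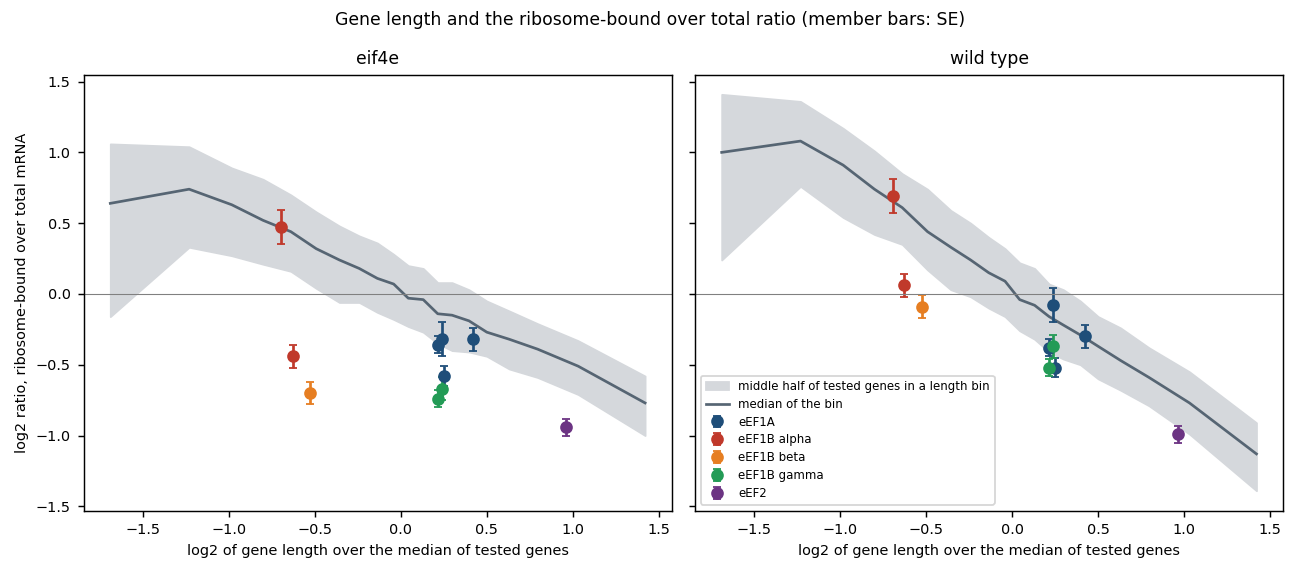
Log2 ratio of ribosome-bound over total mRNA (vertical axis) against log2 of gene length relative to the median tested gene (horizontal axis) in eif4e and wild type, with the line for the median and the band for the quartiles of 20 length bins of all tested genes, and points with SE bars for the 10 members. The short genes AT5G19510 and AT1G30230 lie below the band in both panels, as do the longer genes AT1G57720 and AT1G07930. AT5G60390 lies at the band's lower edge in eif4e and inside the band in wild type, and AT1G07920 and AT1G07940 lie inside it. AT5G12110 lies close to the line, and eEF2 lies below the band in eif4e (-0.94) and near its lower edge in wild type (-0.99).

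Other cytosolic genes of elongation, termination and ribosome rescue were read beside the 10. Of 14 listed, 13 were tested. In total mRNA 3 rose and 0 fell, with a median log2 change of 0.12, where 17.0% of all tested genes passed and 10.4% passed as higher. ERF1-2, a gene of the release factor eRF1, rose by 0.56 ± 0.08 (adjusted p = 0.0017), AT2G18110, the other beta subunit gene of eEF1B, by 0.59 ± 0.09 (adjusted p = 0.0024) and ERF1-3 by 0.25 ± 0.08 (adjusted p = 0.0473, edgeR). AT2G18110 had 79.7, 87.8 and 91.5 FPKM in total eif4e, against 65.1, 61.9 and 61.4 FPKM in total wild type, and in ribosome-bound mRNA it did not pass (0.27 ± 0.09, adjusted p = 0.0512). FBR12, the most abundant eIF5A gene, averaged 498 ± 37.2 FPKM in total eif4e and 488 ± 15.6 FPKM in total wild type (SD, n = 3 each; 0.16 ± 0.06, adjusted p = 0.118). eIF5A acts at ribosomes that stall during elongation.

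In ribosome-bound mRNA 3 of the 13 rose and 1 fell, with a median of 0.14. The 4 called are near the 27.3% of all tested genes that passed in this comparison. AT1G18070, which encodes the GTPase eRF3 that works with eRF1, rose by 0.33 ± 0.06 (adjusted p = 0.0047) and ERF1-1 by 0.31 ± 0.09 (adjusted p = 0.0223), and ELF5A-3 fell by a log2 change of -0.55 ± 0.16 (adjusted p = 0.0259, edgeR). ERF1-3, named after its value was seen, rose by 0.23 ± 0.08 (adjusted p = 0.0428). Tested for a difference between ribosome-bound and total mRNA, 0 of the 13 passed in edgeR, where 4.03% of all tested genes passed. An unadjusted p under 0.05 was found for 3 of the 13 and for 3854 of all 19170 tested genes. DESeq2 and limma each called 1, where they called 7.01% and 4.02% of all tested genes. On ribosomes relative to total mRNA 5 were higher and 3 lower in eif4e, and 5 higher and 4 lower in wild type, near the shares of all tested genes that passed (58.4% in eif4e and 67.5% in wild type). FBR12 had log2 ratios of 0.66 ± 0.06 in eif4e and 0.79 ± 0.06 in wild type, and ELF5A-3 0.80 ± 0.16 in eif4e and 1.13 ± 0.16 in wild type. The eEF2-like gene AT3G12915 had -1.16 ± 0.13 in eif4e and -1.55 ± 0.14 in wild type, at levels of 1.05 ± 0.163 FPKM in ribosome-bound eif4e, 0.857 ± 0.0904 FPKM in ribosome-bound wild type, 2.41 ± 0.209 FPKM in total eif4e and 2.74 ± 0.231 FPKM in total wild type.

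Elongation factors that act in plastids and mitochondria, and are encoded in the nucleus, included genes that rose. Of 7 listed and tested, 4 rose in ribosome-bound mRNA (median log2 change 0.31) and 2 in total mRNA (median 0.08), and 0 fell in either (edgeR, which gave 5 and 2 genes with an unadjusted p under 0.05). In that order 7876 and 6330 of all 19170 tested genes had such a p. Of all tested genes 15.4% passed as higher in ribosome-bound mRNA and 10.4% in total mRNA. RABE1b, the plastid EF-Tu gene, averaged 538 ± 36.7 FPKM in ribosome-bound eif4e and 365 ± 27.1 FPKM in ribosome-bound wild type, a log2 change of 0.61 ± 0.09 (adjusted p = 0.0015), and rose by 0.39 ± 0.08 in total mRNA (adjusted p = 0.0113). SCO1, the plastid EF-G gene, rose by 0.42 ± 0.09 in ribosome-bound (adjusted p = 0.0085) and 0.34 ± 0.09 in total mRNA (adjusted p = 0.0284). emb2726, the plastid EF-Ts gene, rose by 0.50 ± 0.13 in ribosome-bound mRNA (adjusted p = 0.0149) and stood at 0.08 ± 0.12 in total mRNA (adjusted p = 0.668), and AT2G45030, of the mitochondrial EF-G family, rose by 0.31 ± 0.08 in ribosome-bound mRNA (adjusted p = 0.018). The difference between the 2 kinds of mRNA passed for 0 of the 7 in edgeR, DESeq2 and limma, and 1 had an unadjusted p under 0.05 in edgeR. For that difference 3854 of all 19170 tested genes had such a p. The green tissue markers given above moved in the direction of the plastid genes, and their part in this was not tested.

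The genes whose profile over the 12 libraries was most like the mean of the 10 members were found by the root mean square difference of centred log2 counts scaled by TMM. They were NMT1 (0.051), SSI2 (0.054), AGD5 (0.059), VAB1 (0.060) and EIF4A1 (0.065), where the median over all tested genes was 0.383. Of the members themselves, AT5G60390 was nearest to that mean (0.065), and AT5G12110 (0.503) and eEF2 (0.315) were farthest. The genes most like eEF2 were CARB (0.059), TTN1 (0.069), CEV1 (0.071), NADP-ME4 (0.073) and ACO1 (0.077), where the median over all tested genes was 0.576.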

How the data were processed

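Messenger RNA was sequenced with a stranded, poly(A)-selecting kit, per the labels' protocols, and ribosomes were immunopurified. The authors deposited, for each library, read counts per gene and FPKM values. Per the submitters' processing notes, TopHat2 2.0.11 and the TAIR10 build were used; the sources used here do not give the counting program. A gene's ratio of deposited count to FPKM was constant between libraries apart from 1 factor per library, and gave relative gene lengths. A sheet of sequencing indices was not used. Genes absent from a table were taken as 0 (3308 genes, at most 51 counts elsewhere). Symbols came from RefSeq (TAIR10.1), which matched 25710 of 25835 identifiers and all 10 members; its coordinates are not printed, since the builds differ.

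The 19170 genes that averaged at least 1 FPKM were tested on counts with edgeR 4.0.16 (R 4.3.3; TMM, glmQLFit and glmQLFTest, 1 mean per group, 8 residual degrees of freedom), two-sided, with Benjamini-Hochberg adjustment within each of 5 contrasts and a threshold of 0.05. Every adjusted p comes from this fit unless another tool or setting is named. The eEF1A sum replaced its 4 rows in a second fit. Errors are SE for log2 changes and SD over 3 libraries for FPKM. Replicate libraries differed from each other beyond counting noise (the lowest chi-square was 6.73 per degree of freedom). With 3 libraries against 3, an exact two-sided permutation test cannot go below p = 0.1, so none is given for single genes. Alternatives were RLE factors, library size alone, no filter, a filter of 5 FPKM, a gene length correction (an offset that removes each library's trend of log counts on length), the replicate block, both together, the compared groups alone, each library or replicate number left out, DESeq2 1.42.0, and limma 3.58.1 on log2(FPKM + 1). The procedure was tested on simulated data.

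Same-numbered libraries deviated together from their group means in every pair of groups compared (correlations across genes of 0.19 to 0.80, against -0.73 to 0.27 for different numbers). Deviations within a group sum to 0, which lowers the values for different numbers. Between genotypes, replicate 1 of eif4e was as close to wild type replicate 3 (0.27 in total and 0.23 in ribosome-bound mRNA) as to wild type replicate 1 (0.25 in total and 0.19 in ribosome-bound mRNA). Within a genotype, same-numbered ribosome-bound and total libraries correlated at 0.36 to 0.80, against at most 0.14 for different numbers. Given the values between genotypes, the numbers were used to pair samples only in the replicate block, an alternative to the main fit. The main fit of the ribosome-bound over total ratios and of the difference thus leaves out this pairing within a genotype. The labels give only the number. The members, the related gene lists and the markers were chosen with earlier results of these data known. All 10 members are named in each comparison. Of the related genes, those with the smallest adjusted p and the highest mean FPKM were to be named, at most 4 a list. Over the comparisons, more than 4 genes of the list of other cytosolic genes are named. For likeness, the 5 nearest tested genes with a symbol are named.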

Additional observations from a re-analysis of the deposited data

Results flagged for a closer look

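For 2 genes the change with genotype differed between ribosome-bound and total mRNA by the interaction test in edgeR. AT1G30230, the beta subunit gene of eEF1B, differed by -0.61 on the log2 scale, with a change of 0.26 in ribosome-bound and 0.87 in total mRNA. AT5G19510, an alpha subunit gene, differed by -0.50, with a change of 0.18 in ribosome-bound and 0.68 in total mRNA. With the length correction neither passed in edgeR, at -0.47 for AT1G30230 (adjusted p = 0.0527) and -0.33 for AT5G19510 (adjusted p = 0.207). Groups of 3 libraries were not examined for single outlying samples.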

How the results depend on the processing

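With a library or a replicate number left out, 2 to 7 members were called in total mRNA, 0 to 5 in ribosome-bound mRNA and 0 to 2 for their difference. The lowest counts came without replicate 3 in all groups for total mRNA and without replicate 1 for ribosome-bound mRNA, where 2 libraries per group remained. In those fits 4.23% of all tested genes passed in total mRNA and 0.0626% in ribosome-bound mRNA, and for the difference 0 passed without replicate 1 or without replicate 2 (1940 and 2490 had an unadjusted p under 0.05 in edgeR). The eEF1A sum stayed at 0.24 to 0.32 in total mRNA (adjusted p up to 0.151) and 0.24 to 0.30 in ribosome-bound mRNA (adjusted p up to 0.138), and its difference ran from -0.06 to 0.02. Lost calls named above for single genes are not a full list.

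With limma on log2(FPKM + 1), 4 members passed in total mRNA (AT5G60390 then had an adjusted p of 0.0557), 2 in ribosome-bound mRNA and 1 for the difference, and the eEF1A sum was at 0.15 in total mRNA (adjusted p = 0.122) and 0.07 for the difference. Of all tested genes, limma called 24.1% in total mRNA, 24.0% in ribosome-bound mRNA and 4.02% for the difference. With library size alone, 5 members passed in total mRNA, 2 in ribosome-bound mRNA and 1 for the difference. In that order 21.2%, 25.0% and 4.64% of all tested genes passed. The eEF1A sum was then at 0.17 in total mRNA (adjusted p = 0.0862) and 0.06 for the difference. With the compared groups alone, 2 members passed in ribosome-bound mRNA and the eEF1A sum was at 0.26 there (adjusted p = 0.0679). In that fit 14.1% of all tested genes passed. With the length correction 0 members passed for the difference (1 with the replicate block too), and the eEF1A sum was at 0.18 in ribosome-bound mRNA (adjusted p = 0.0605). For the difference 0.694% of all tested genes then passed, and 2.01% with the block too. The cause of these shifts between settings was not tested.

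The replicate block called 31.8% of all tested genes in total mRNA (17.0% without it), 41.3% in ribosome-bound mRNA (27.3% without it) and 10.1% for the difference (4.03% without it). Among members it added AT5G12110 in total mRNA and AT1G07930 and AT1G09640 in ribosome-bound mRNA, and it changed no other call of a member. The length correction lowered the share for the difference to 0.694%. Among called genes of total mRNA 61.5% were higher in eif4e, 56.7% with RLE factors and 25.2% with library size alone.

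Estimates near 0 changed sign in places. In total mRNA AT1G07940 was at -0.03 with library size alone and -0.05 with limma. In ribosome-bound mRNA AT5G12110 was at -0.01 with library size alone, -0.03 with limma and -0.09 to 0.09 with libraries left out. AT1G07920 was at 0.02 without the filter and -0.17 to 0.19 with libraries left out. AT1G07940 was at -0.04 with the length correction, -0.05 with the block too and -0.02 to 0.16 with libraries left out. For the difference, AT1G07930 was at 0.02 with library size alone, 0.03 with limma and -0.11 to 0.00 with libraries left out. AT1G07940 was at 0.05, 0.07 and -0.09 to 0.05 in the same order. AT5G60390 was at -0.03 with the length correction, with or without the block, and -0.02 to 0.05 with libraries left out, and eEF2 (AT1G56070) was at -0.20 with the length correction, with or without the block. For ribosome-bound over total mRNA in wild type, AT5G19510 was at -0.06 with library size alone, -0.06 with limma, and -0.54 with the length correction, with or without the block (adjusted p = 1.4e-04 and 3.0e-05). AT1G07920 was at 0.06 with the length correction, with or without the block, and -0.23 to 0.02 with libraries left out. The counts of members called for ribosome-bound over total mRNA stayed within 1.5 times in both genotypes under every alternative. Each member had at least 637 counts in every library, and the part of depth in calls near the threshold was not tested. Reads shared by eEF1A copies were not resolved.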
